A study of Mus musculus with 49 samples.

Results

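Genes of the endoplasmic reticulum (ER) stress response and the unfolded protein response (UPR) were followed in mouse hepatocytes as they were plated, dedifferentiated in culture and grown as aggregates or organoids. The set was chosen by name and role and holds 30 genes of the 46078 gene identifiers in the table of UMI counts (unique molecular identifiers, short random tags that mark single RNA molecules). All 30 were found by their Ensembl identifiers, and all 30 passed the filter on low counts in the fit of the time course. By role they are 8 ER chaperones and related proteins (Hspa5, Hsp90b1, Hyou1, Calr, Canx, Sdf2l1, Manf, Creld2), 3 protein disulfide isomerases (Pdia3, Pdia4, Pdia6), 3 DnaJ co-chaperones of the ER (Dnajb9, Dnajb11, Dnajc3), 7 genes of ER-associated degradation, ERAD (Herpud1, Derl1, Derl2, Derl3, Sel1l, Syvn1, Edem1), 4 transcription factors (Xbp1, Atf4, Atf6, Ddit3) and 5 further genes of the Atf4 arm (Trib3, Asns, Chac1, Sesn2, Ppp1r15a).

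RNA was profiled by CEL-seq2, which tags the 3′ ends of transcripts, in 49 libraries of 16 conditions, and the cells were of wild-type C57BL/6J background throughout. Fresh hepatocytes (FH) came from the livers of adult mice 10 weeks old by collagenase digestion, and plated hepatocytes were taken at 3 h and at 1, 2, 4, 7 and 14 days in medium with EGF (3 libraries each, FH included). A further 2 libraries each came from hepatocytes cultured for 7 days with verteporfin at 0.3 µM, an inhibitor of the transcriptional activity of Yap, or with its solvent DMSO. The passaged progeny of the hepatocytes, dedifferentiated hepatocytes (dediHeps), gave 5 libraries. From them came dediHep aggregates formed in wells that cells do not adhere to (3), spheroid organoids in Matrigel (dediHep-SOs, 3) and budding organoids after transfection with the intestinal transcription factor Cdx2 (dediHep-BOs, 3). For comparison there were spheroid organoids from fetal intestinal progenitors of E13.5 embryos (FIPC-SOs, 3), budding organoids from adult intestinal stem cells of mice 10 weeks old (ISC-BOs, 4) and hepatocyte-derived progenitors made with Y-27632, A-83-01 and CHIR99021 (CLiPs, 3). The labels do not state for every group that its libraries came from separate animals or cultures, so p-values measure the spread between these libraries, which may in part be technical.

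The ER folds secreted and membrane proteins, and hepatocytes secrete large amounts of plasma protein. Unfolded proteins draw the chaperone BiP, the product of Hspa5, away from sensors in the ER membrane. The sensor Ire1 splices the Xbp1 transcript, Atf6 is released as a transcription factor by cleavage, and Perk phosphorylates eIF2α, which lowers general translation but raises that of Atf4. Spliced Xbp1 and Atf6 act on genes of folding and ERAD, whereas Atf4 acts on genes of amino acid synthesis, redox balance and recovery of translation, and is also switched on by other kinases such as the sensor of amino acid shortage Gcn2. The CEL-seq2 counts give the amount of a transcript and do not tell spliced from unspliced Xbp1.

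Promoter sequences are shown because the 2 arms are told apart by short elements. RefSeq promoter windows (250 bases before to 50 after the start of transcription, GRCm38.p6) were at hand for 26 of the 30 genes, all but Atf6, Derl1, Hyou1 and Manf. The ER stress response element, ERSE (CCAAT, 9 bases of any kind, CCACG, on either strand), was found in the windows of 9 of 26 genes, 34.6%, against 37 of 27025 genes with a window, 0.137%. The holders were Hspa5, Hsp90b1, Calr, Canx, Creld2, Pdia6, Dnajc3, Derl3 and Syvn1. The related ERSE-II (ATTGG, 1 base, CCACG) was in those of Dnajb11 and Herpud1, 7.69% against 0.0444% of all genes. The C/EBP-ATF response element, CARE (TGATG, 1 base, AA, 1 base), was in those of Herpud1, Trib3, Asns and Chac1, 15.4% against 4.5%. The UPR element core TGACGTGG was in none of the 26, against 193 genes or 0.714% of all. A match describes the letters of a window and not binding. The genes were chosen by name for the UPR and the elements are those known for its arms, so the higher shares are not a finding of these data. Below are the matches of genes that the results turn on, 5′ to 3′ on the strand of the gene, with the element in capitals (a match on the opposite strand reads as its reverse complement, beginning CGTGG or ending in ATCA).
Hspa5, ERSE, chr2:34772020-34772048, plus strand: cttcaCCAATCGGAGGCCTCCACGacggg
Hsp90b1, ERSE, chr10:86705528-86705556, minus strand: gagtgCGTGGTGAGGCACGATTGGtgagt
Calr, ERSE, chr8:84847070-84847098, minus strand: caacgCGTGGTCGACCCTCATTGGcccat
Creld2, ERSE, chr15:88819515-88819543, plus strand: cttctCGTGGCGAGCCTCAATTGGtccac
Derl3, ERSE, chr10:75893237-75893265, plus strand: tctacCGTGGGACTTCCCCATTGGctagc
Herpud1, ERSE-II, chr8:94386369-94386395, plus strand: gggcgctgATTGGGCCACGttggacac
Herpud1, CARE, chr8:94386308-94386332, plus strand: cacggcggGTTGCATCAgcccgcac
Asns, CARE, chr6:7693216-7693240, minus strand: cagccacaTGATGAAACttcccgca
Chac1, CARE, chr2:119351040-119351064, plus strand: tccctgccGTTGCATCActcctgcc

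Levels are given as CPM, the counts of a gene per 1e+06 counts of a library whose size was corrected by TMM, a factor per library that sets most genes level. Library totals ran from 861047 to 3872936 counts (median 1976760), so that 3 counts, taken as the floor of detection, came to between 0.63 and 4.11 CPM. The largest count of a member, 2886 for Hspa5, was 70.5% of the number of sequences that the UMI can take. "Passed" below means a Benjamini-Hochberg adjusted p under 0.1 in edgeR's quasi-likelihood test over all genes tested, and log2 fold changes (log2FC) and their standard errors (SE) are from that fit. Libraries of the same group differed along a shared axis, which held 36.6% of the variance within groups over 7891 genes: 8 of the 25 members among them followed it with r over 0.5 (Xbp1 at 0.84, Hsp90b1 at 0.82, Syvn1 at 0.77) and 6 with r under -0.5 (Derl2 at -0.76, Pdia6 at -0.74, Sesn2 at -0.70). Across 7878 genes, that r had a Spearman rho of -0.45 with the GC content of the last 500 bases of the transcript, and genes are not independent points. FH replicate 1 stood apart for the same genes, with 734 CPM of Syvn1 against 15.1 and 25.8 and 1020.5 CPM of Hsp90b1 against 298 and 201 in the other 2 FH libraries, and the part of the axis in the results was not tested. Counts against FH are therefore also given without it. The share of all genes passing in those fits is not given, so these counts have no background of their own. Marker genes moved with the groups too. The summed level of 7 Kupffer cell markers was 71.2 to 264 CPM in FH and 1.27 to 4.66 CPM at 3 h. At 1 day it was 42.5, 44.3 and 0.508 CPM in replicates 1, 2 and 3. Cholangiocyte markers were at 17.8 to 106 CPM in FH and 692 to 733 at 3 h. Endothelial markers were at 186 to 294 and 60.5 to 122 CPM, and stellate cell and fibroblast markers at 141 to 225 and 31.8 to 36.3 CPM. The 7 hepatocyte markers summed to 17425 to 21658 in FH, 23127 to 23953 at 3 h and 6587 to 8393 at 1 day. In every library the largest count of any gene was at least 3835, close to the number of sequences that the UMI can take. The CPM of a gene at that limit depends on the corrected library size. Whether hepatocyte markers were at the limit was not tested, so their sums, here and below, cannot be read as amounts of hepatocyte RNA. Mitochondrial transcripts held 2.94 to 3.30% of counts in FH, 2.95 to 3.07% at 3 h and 1.80 to 2.03% at 1 day. The part of these cells in the results was not tested. In bulk libraries fewer cells of a type and less RNA per cell cannot be told apart.

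Over the 16 conditions, 23 of the 30 genes had their highest mean in hepatocytes not yet cultured for a day: 11 in FH and 12 at 3 h. Among the 21 genes of folding and ERAD this held for 19, the exceptions being Derl1 (highest in aggregates) and Derl3 (highest with verteporfin). Of the 9 transcription factors and genes of the Atf4 arm, Xbp1, Atf6, Chac1 and Ppp1r15a had their highest mean at 3 h. Of the other 5, Atf4 was highest in aggregates (999 ± 117 CPM, SD, n = 3), Asns in FIPC-SOs (121 ± 17.2, n = 3), Sesn2 at 14 days (173 ± 36.8, n = 3), Ddit3 in CLiPs (53.3 ± 25.8, n = 3) and Trib3 with verteporfin (48.5 ± 4.63, n = 2). The lowest means lay at 14 days for 11 genes. Derl3 had the widest range, from 87.1 CPM with verteporfin to 0.107 CPM in dediHep-SOs, whose libraries held 1 count of it in all. Among the others the ratio of the highest to the lowest condition mean was 68.2 for Asns, 65.3 for Chac1, 50.7 for Ppp1r15a and 40.7 for Pdia4, and it was smallest for Canx at 2.07 and Atf4 at 2.22.

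**Figure D1:**
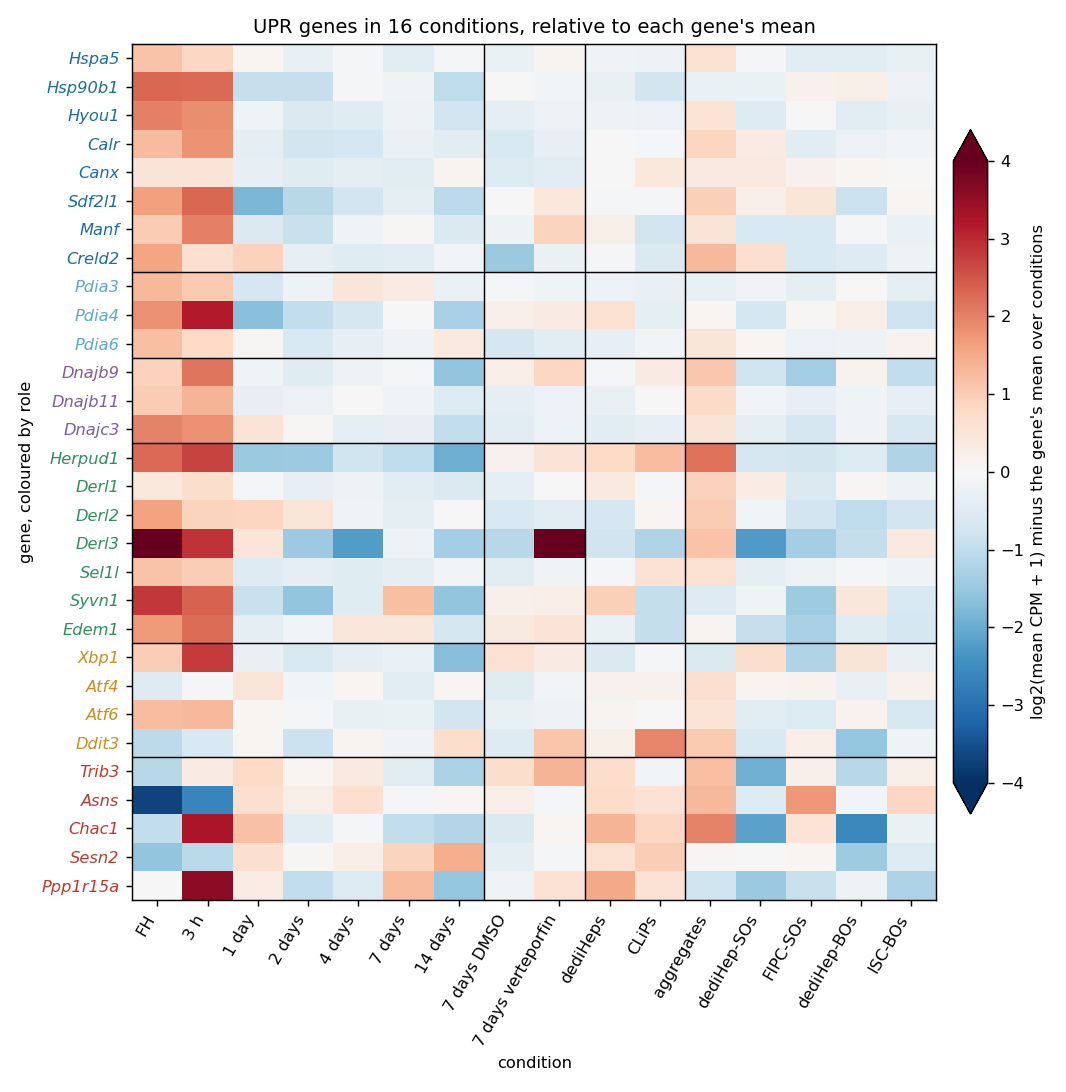
Levels of the 30 genes (rows, by role) in the 16 conditions (columns), as log2 of mean CPM plus 1 minus the mean of the gene over the conditions. Genes of folding and ERAD are highest in the FH and 3 h columns, and Derl3 exceeds the colour scale of -4 to 4 with verteporfin.

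The first question is what the first hours of culture did to these genes. At 3 h, 5 of the 30 genes were higher than in FH and none was lower, against 7.58% of all 12443 genes tested that were higher and 10.9% that were lower. The median log2FC of the 30 was 0.34, and that of all genes tested was -0.07. Of the 5, 4 were transcription factors or genes of the Atf4 arm (Chac1, Ppp1r15a, Xbp1 and Trib3), and 1 was a folding gene, Dnajb9.

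Chac1, which encodes an enzyme that degrades glutathione, stood at 1.18, 60.2 and 8.26 CPM in FH and at 476, 562 and 364 CPM at 3 h. Every 3 h library lay above every FH library, and the rise was the largest among the 30 (log2FC 4.34, SE 0.73, adjusted p = 0.000555). Ppp1r15a (Gadd34), whose product directs the phosphatase that reverses the phosphorylation of eIF2α, rose from 17.7, 2.74 and 5.16 to 179.6, 94.7 and 66.3 CPM (log2FC 3.69, SE 0.75, adjusted p = 0.00324). Xbp1 had 389, 152 and 149 CPM in FH and 724, 869 and 836 CPM at 3 h (log2FC 1.80, SE 0.52, adjusted p = 0.0276). The groups of both genes were apart, although FH replicate 1 held more Xbp1 than the other 2. Dnajb9 (ERdj4), a co-chaperone of BiP, went from 72.0, 23.3 and 46.4 to 102, 92.5 and 139 CPM (log2FC 1.21, SE 0.46, adjusted p = 0.0869). Trib3, a pseudokinase gene induced by Atf4, went from 2.36, 9.58 and 12.4 to 26.7, 24.2 and 18.6 CPM (log2FC 1.47, SE 0.53, adjusted p = 0.0721).

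The remaining 25 did not pass. None of the 8 chaperones and related genes passed. Hspa5 had 2243 ± 489 CPM in FH and 1813 ± 416 at 3 h (SD, n = 3 each; log2FC -0.33, adjusted p = 0.48), Canx 635 ± 162 and 632 ± 152, and Hsp90b1 507 ± 448 and 491 ± 51.4. The means of Manf were 224 ± 249 and 450 ± 345 CPM, those of Calr 609 ± 93.1 and 882 ± 423, those of Sdf2l1 37.8 ± 22.9 and 59.5 ± 40.1 and those of Creld2 209 ± 164 and 112 ± 83.1. Herpud1 stood at 554, 416 and 364 CPM in FH and at 601, 596 and 647 at 3 h, apart but not past the test (adjusted p = 0.32). Atf4 itself had 451 ± 174 CPM in FH and 611 ± 173 at 3 h (log2FC 0.41, SE 0.35, adjusted p = 0.459). By the number in the sample descriptions, only 1 of the 3 h libraries matched an FH library. With that number as a block, 2 genes passed in place of 5. The part of the differing numbers in the results was not tested. Calls at 3 h also depended on single libraries. Without FH replicate 1, 8 genes were higher (Manf, Pdia4, Dnajb9, Syvn1, Edem1, Xbp1, Chac1, Ppp1r15a) and Derl2 was lower, whereas without FH replicate 2 only Chac1 and Ppp1r15a passed (2 genes), without FH replicate 3 these and Trib3 (3), and without replicate 1 or replicate 3 of the 3 h group 3 genes. Xbp1 then had adjusted p = 0.124 and 0.123 without FH replicates 2 and 3, and Dnajb9 and Trib3 each lost their call without any one of the 3 h libraries.

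Other genes of the pathway, from lists apart from the 30, were counted the same way. Of 14 UPR sensors and regulators, 13 were tested and 2 were higher at 3 h, Ern1, which encodes Ire1 (log2FC 2.81, adjusted p = 0.000196), and Creb3l2 (2.21, adjusted p = 6.6e-05). Of 26 further Atf4 targets tested, 6 were higher and 2 lower, led by the enzyme genes of serine and folate metabolism Psat1 (4.26, adjusted p = 0.000266) and Mthfd2 (4.19, adjusted p = 0.000202) and the arginine transporter gene Slc7a1 (2.95, adjusted p = 0.00502). Of 24 further ER folding genes 1 was higher, 4 were lower and 19 did not pass, the lower among them Fkbp14 (-2.49, adjusted p = 0.000266) and the oxidase gene Ero1b (-1.06, adjusted p = 0.0206). Of 19 further ERAD genes 3 were higher (Ube2g2 at 2.79, Rnf5 at 3.43, Herpud2 at 1.94) and 2 lower, and of 12 cytosolic heat shock genes none was higher and 3 were lower, with Dnaja1 at -1.21.

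**Figure D2:**
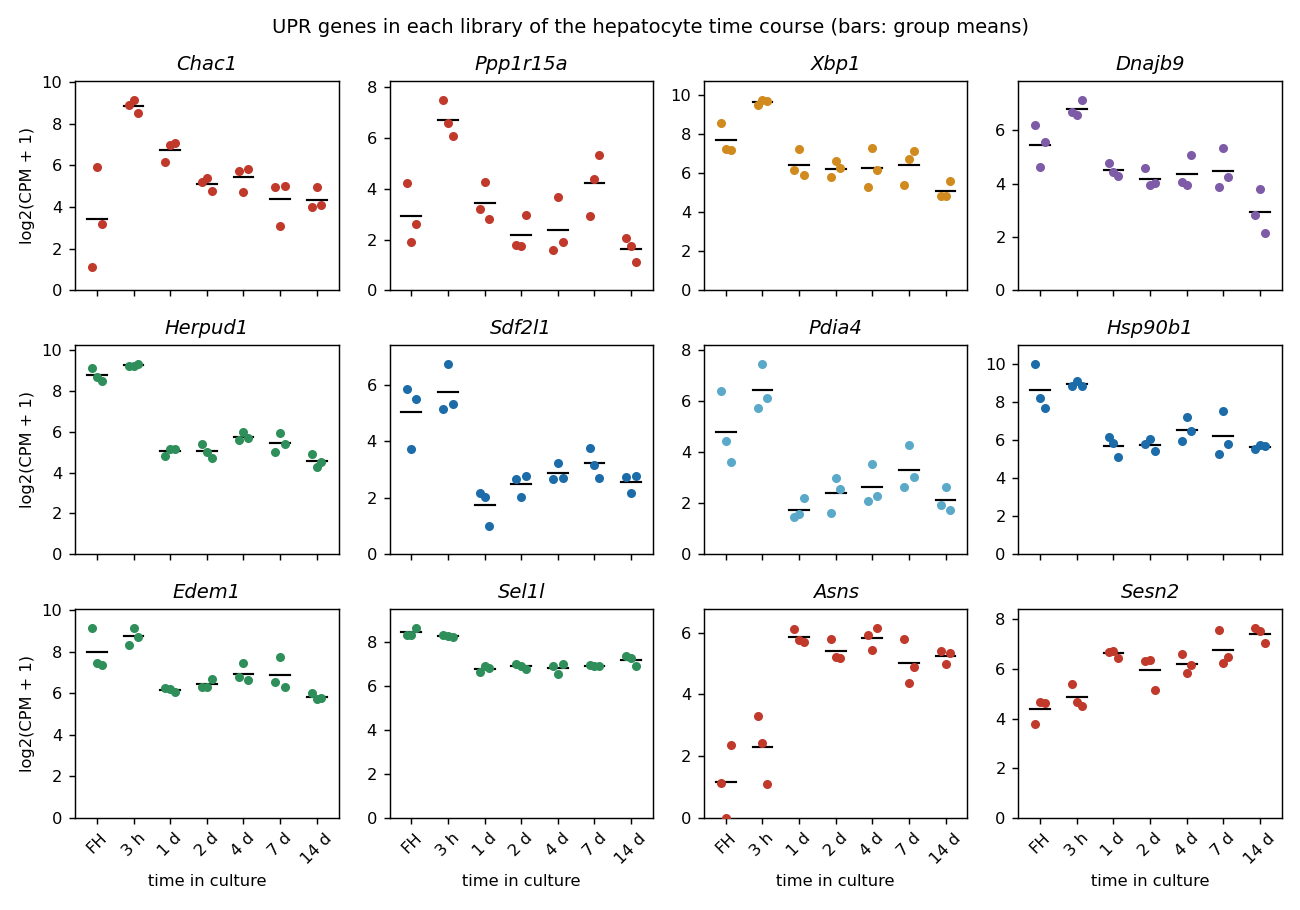
Log2 of CPM plus 1 (vertical axis) of 12 genes in each library of FH and of hepatocytes at 3 h and 1, 2, 4, 7 and 14 days (horizontal axis, 3 libraries each); bars are group means of the log values. Chac1, Ppp1r15a, Xbp1 and Dnajb9 peak at 3 h, Herpud1, Sdf2l1, Pdia4, Hsp90b1, Edem1 and Sel1l drop between 3 h and 1 day, and Asns and Sesn2 are higher from 1 day on.

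Between 3 h and 1 day the set turned. At 1 day 23 of the 30 genes were lower than at 3 h, against 26.2% of all genes tested, and 2 were higher, against 26.5%; 14 of the 23 were over 4-fold lower (log2FC under -2). The median log2FC of the 30 was -1.81 and that of all genes 0.08. Of the 21 genes of folding and ERAD, 19 were lower and none higher, the exceptions being Creld2 (112 ± 83.1 and 134 ± 38.8 CPM at 3 h and 1 day) and Derl2 (225 ± 34.5 and 217 ± 49.9 CPM). Of the 9 transcription factors and Atf4-arm genes, Xbp1, Atf6, Chac1 and Ppp1r15a were lower, Asns and Sesn2 were higher, and Atf4, Ddit3 and Trib3 did not pass.

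The smallest p belonged to Herpud1, an ERAD gene at chromosome 8 whose promoter window holds both ERSE-II and CARE. Its levels were 601, 596 and 647 CPM at 3 h and 27.3, 35.2 and 35.1 at 1 day (log2FC -4.31, SE 0.33, adjusted p = 4.81e-09). Sdf2l1, a subunit of a BiP-containing chaperone complex, fell from 34.4, 106 and 38.4 to 3.47, 3.02 and 1.02 CPM (log2FC -4.58, SE 0.61, adjusted p = 4.18e-06). Pdia4, a disulfide isomerase, went from 52.2, 176 and 68.7 to 1.73, 2.01 and 3.56 CPM (log2FC -5.39, SE 0.77, adjusted p = 1.1e-05). The 1 day levels of the last 2 genes were close to the floor of detection. Sel1l, the adaptor of the ERAD ubiquitin ligase, stood out by its even replicates, with 316, 308 and 301 CPM at 3 h and 97.1, 118 and 111 at 1 day (log2FC -1.57, SE 0.24, adjusted p = 1.99e-05).

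Edem1, which marks misfolded glycoproteins for degradation, had 322, 565 and 418 CPM at 3 h and 73.7, 73.0 and 64.6 at 1 day (log2FC -2.69, SE 0.45, adjusted p = 6.15e-05). Calr, the calcium-binding lectin chaperone calreticulin, had 759, 1353 and 534 CPM and then 136, 291 and 159 (log2FC -2.23, SE 0.37, adjusted p = 6.47e-05). Hsp90b1 (Grp94), the Hsp90 of the ER, went from 461, 551 and 462 to 71.1, 56.4 and 33.5 CPM (log2FC -3.26, SE 0.57, adjusted p = 0.000117). In each of these 3 genes the groups were apart. Dnajb11 (ERdj3) went from 95.5, 154 and 69.8 to 33.8, 33.2 and 29.0 CPM (log2FC -1.80, SE 0.32, adjusted p = 0.00013), and Dnajb9 ended at 26.5, 20.6 and 18.3 CPM (log2FC -2.42, SE 0.47, adjusted p = 0.0003). Their 1 day libraries differed by less than 10 CPM, whereas the 3 h libraries were more than 2-fold apart for Dnajb11. Xbp1 ended at 71.1, 152 and 59.0 CPM (log2FC -3.17, SE 0.54, adjusted p = 8.52e-05).

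Chac1 and Ppp1r15a fell back from their 3 h peak. Chac1 had 70.7, 124 and 132 CPM at 1 day, lower than at 3 h (log2FC -2.17, SE 0.64, adjusted p = 0.00873) yet still higher than in FH (2.18, SE 0.69, adjusted p = 0.018). Ppp1r15a had 8.24, 18.1 and 6.10 CPM, lower than at 3 h (log2FC -3.44, SE 0.69, adjusted p = 0.000438) and overlapping the FH libraries. In the opposite direction, Asns, asparagine synthetase, rose from 8.92, 4.40 and 1.16 CPM at 3 h to 68.1, 52.9 and 51.3 at 1 day (log2FC 3.51, SE 0.55, adjusted p = 3.1e-05). Sesn2, sestrin 2, an inhibitor of mTORC1 signalling, rose from 40.8, 24.2 and 22.1 to 103, 105 and 86.9 CPM (log2FC 1.70, SE 0.41, adjusted p = 0.00205). Genes with a CARE were thus on both sides: Asns rose, Chac1 and Herpud1 fell and Trib3 did not pass (23.2 ± 4.16 and 32.6 ± 6.43 CPM, n = 3 each).

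The other genes had smaller or less even differences. Among the chaperones Hspa5 fell by 0.81 on the log2 scale (adjusted p = 0.0273), the lectin chaperone Canx by 0.92 (adjusted p = 0.00994), the nucleotide exchange factor gene Hyou1 by 2.13 (adjusted p = 0.00744) and the secreted ER protein gene Manf by 2.69 (adjusted p = 0.00302). Pdia3 fell by 1.82 and Pdia6 by 0.80 (adjusted p = 0.00901 and 0.0805), and Dnajc3 (p58IPK) by 1.37 (adjusted p = 0.000982). The sensor gene Atf6 fell by 1.29 (adjusted p = 0.0152). Among the ERAD genes the derlins, membrane proteins of the export channel, differed from each other: Derl1 fell by 0.83 (adjusted p = 0.00609), Derl2 had a log2FC of -0.12 (adjusted p = 0.79) and Derl3 fell by 2.56 (adjusted p = 0.0391). The ubiquitin ligase gene Syvn1 (Hrd1) fell by 3.40 (SE 1.08, adjusted p = 0.0139), from 84.1 to 289 CPM at 3 h to 4.77 to 42.3 at 1 day. Pdia6 lost its call when any 1 library but replicate 2 of the 1 day group was left out (adjusted p from 0.119 to 0.292), Derl3 without replicate 1 at 3 h or replicates 2 or 3 at 1 day (0.204, 0.126 and 0.133), and Hspa5 without replicate 1 at 3 h (0.137). With library totals in place of TMM, 15 genes were lower and 4 higher, at a median of 0.82 for all genes and -1.06 for the 30. By the number in the descriptions, only 1 of the 3 h libraries matched a 1 day library. With that number as a block, 18 genes passed in place of 25.

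Against FH, 22 of the 30 genes were lower at 1 day and 5 were higher (background 22.2% and 17.7% of all genes), with a median log2FC of -1.31 for the 30 and -0.03 for all genes. All but 1 of the 21 genes of folding and ERAD were lower, the exception being Creld2, and the 5 that were higher were Asns (log2FC 4.76, adjusted p = 4.19e-06), Sesn2 (2.17, adjusted p = 0.000353), Chac1, Trib3 (1.89, adjusted p = 0.00594) and Atf4 (0.92, adjusted p = 0.0477). Atf4 lost its call without FH replicate 1 (adjusted p = 0.2) or replicates 2 or 3 of the 1 day group (0.137 and 0.102). Without FH replicate 1 the counts were 17 lower and 4 higher, and Xbp1, Syvn1, Atf6, Manf and Dnajb9 were among those that no longer passed (adjusted p = 0.306, 0.868, 0.204, 0.798 and 0.273). Derl1 and Derl2 lost theirs without FH replicate 2 or 3 (0.101 to 0.198), and Dnajb9, Derl1, Derl2, Xbp1, Atf6 and Manf without at least 1 of the 1 day libraries (0.104 to 0.195). The counts also depended on the scaling. The FH and 3 h libraries had TMM factors of 0.59 to 0.68 and the others 0.91 to 1.27, and with library totals in place of TMM the median of all genes at 1 day rose to 0.61 while that of the 30 was -0.67, with 13 genes lower and 6 higher. Derl1 then turned positive at 1 day (log2FC 0.10), and all genes split into 4647 higher and 1684 lower in place of 2203 and 2759.

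The pathway lists divided in the same comparison. Of 24 further ER folding genes 15 were lower than FH at 1 day, led by Ero1b (log2FC -3.15, adjusted p = 8.74e-08), Fkbp14 (-2.09) and the disulfide isomerase gene P4hb (-1.46), and 1 was higher, Ero1a (1.44). Of 19 ERAD genes 7 were lower, among them Selenok (-1.89) and Os9 (-1.87), and 2 were higher, Ube2j1 (1.37) and Ube2g2 (1.34). Of 26 further Atf4 targets 19 were higher, led by Psat1 (7.93, adjusted p = 2.43e-08), Mthfd2 (6.09, adjusted p = 6.62e-08) and Slc7a1 (4.74, adjusted p = 2.04e-06), and 3 were lower, Slc38a2 (-1.52), Gpt2 (-1.29) and Shmt2 (-1.21). Of 13 sensors and regulators 3 were higher and 3 lower, with Creb3l2 at 3.28 and the liver factor gene Creb3l3 at -3.61. Of 12 cytosolic heat shock genes 1 was higher, Hspb1 (1.81), and 3 were lower.

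From 2 to 14 days the counts were of the same order. Lower than FH were 23 genes at 2 days (background 23.1%), 21 at 4 days (23.5%), 20 at 7 days (23.5%) and 22 at 14 days (27.6%), and higher were 3 (21.2%), 3 (23.5%), 2 (25.6%) and 3 (28%). Their medians were -1.60, -1.36, -1.37 and -1.68 on the log2 scale, with those of all genes between 0.04 and 0.17. Of the 21 genes of folding and ERAD, 21, 19, 18 and 20 were lower and none was higher. These comparisons and those at 3 h and 1 day share the FH libraries, so they are not independent of each other. Without FH replicate 1 the counts of lower and higher genes were 18 and 2, 17 and 2, 16 and 4, and 17 and 2, and with library totals in place of TMM 14 and 5, 13 and 6, 11 and 6, and 17 and 4. Summed hepatocyte markers were at 17425 to 21658 CPM in FH, 4592 to 5387 at 2 days and 1398 to 1835 at 14 days (Tat at 0), endothelial markers at 186 to 294, 14.6 to 83.8 and 3.93 to 10.4 CPM, and cholangiocyte markers at 17.8 to 106, 190.1 to 341 and 1137 to 1318 CPM; their part in the results was not tested.

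Herpud1 was at its lowest at 14 days, with 29.6, 18.2 and 22 CPM against 364 to 554 in FH (log2FC -4.27, SE 0.33, adjusted p = 6.01e-10). Dnajc3, whose product binds unfolded proteins in the ER, was lower at each later time, and had 79.7 ± 13.8 CPM at 14 days against 631 ± 306 in FH (log2FC -3.0, SE 0.32, adjusted p = 8.1e-08). Asns was higher than FH at each time, by 4.32, 4.77, 4.06 and 4.20 on the log2 scale at 2, 4, 7 and 14 days. Asns thus stayed between 31.1 and 41.0 CPM in the 14 day libraries, against at most 4.13 in FH. Sesn2 had its widest difference at 14 days, with 202, 186 and 132 CPM against 13, 24.6 and 23.7 in FH (log2FC 3.05, SE 0.43, adjusted p = 4.19e-06). Trib3 was higher at 2 and 4 days (1.18 and 1.46, adjusted p = 0.0742 and 0.0255) but lost both calls without FH replicate 1 (adjusted p = 0.28 and 0.119), and at 2 days also without replicates 1 or 2 of that time (0.118 and 0.224) and at 4 days without replicate 3 of that time (0.115). Ddit3 (Chop), a factor tied to cell death in prolonged ER stress, was higher at 14 days (22.1 ± 6.71 against 5.84 ± 6.87 CPM; log2FC 1.82, adjusted p = 0.0691), and lost this call without FH replicate 1 or 2 (0.218 and 0.161) or replicate 2 at 14 days (0.156).

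Derl3 came nearest to zero. FH held 190, 11.0 and 50.6 CPM, 161, 8 and 49 counts, and the 4 day libraries held 1 count in all, against 218 in FH, a ratio of 562 with a 95% counting interval from 99.7 to 22280. Summed plasma cell markers were at 4.13 to 15.3 CPM in FH (4 of 4 markers with a count) and at 0 to 0.813 CPM at 4 days (1 of 4, with Jchain, Ighm and Igkc at 0), and their part in the fall of Derl3 was not tested. The difference of Syvn1 at 4 days rested on FH replicate 1: its log2FC was -3.40 (adjusted p = 0.0136), and without that library it was 0.21 (adjusted p = 0.868).

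**Figure D3:**
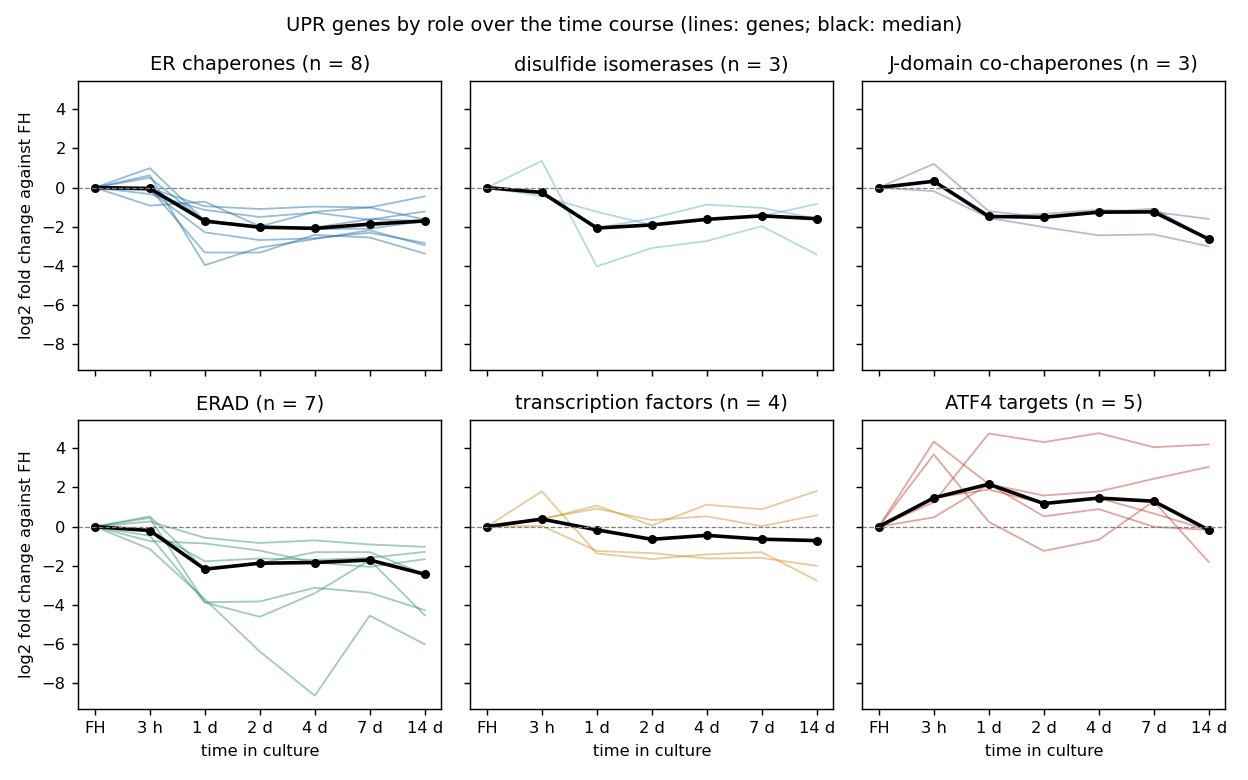
Log2 fold change against FH (vertical axis) at 3 h and 1, 2, 4, 7 and 14 days (horizontal axis) for each role; thin lines are genes and the black line is the median of the role. Chaperones, isomerases, co-chaperones and ERAD genes lie below 0 from 1 day on at the median, while lines of the Atf4 arm end on both sides of 0; the Derl3 line reaches -8.63 at 4 days, where 1 count was left.

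The same sets of promoters can be read against these times. Of the 11 genes with an ERSE or ERSE-II, none passed at 3 h against FH (median log2FC -0.18), whereas of the 15 genes with a window and neither element 5 were higher (0.63). At 1 day against 3 h, 10 of the 11 were lower and 9 of the 15 were lower and 2 higher, with medians of -1.80 and -1.82. At 2 and 4 days against FH all 11 were lower, and of the 15 without an element 8 and 7 were lower and 3 were higher each time. The groups hold different roles, so element and role cannot be told apart here.

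With verteporfin for 7 days, 1 of the 30 genes passed against DMSO, Derl3, in a comparison in which 0.317% of 10400 genes tested were higher and 0.0577% were lower. It encodes a derlin of the ERAD channel that is known as a target of the UPR, lies on chromosome 10, and holds the ERSE printed above at 156 to 138 bases before its start. Its levels were 91.9 and 82.4 CPM with verteporfin (142 and 133 counts) and 1.32 and 1.68 CPM with DMSO (2 and 3 counts). The difference was 5.81 on the log2 scale (SE 0.44, adjusted p = 0.000874). The untreated 7 day libraries held 4.92, 3.49 and 2.61 CPM, close to DMSO. The FH libraries spanned 11.0 to 190 CPM, with the top value in FH replicate 1 alone. The verteporfin libraries lay below that library and above the other 2. In 11 of 12 alternative fits Derl3 kept its call, with log2FC from 5.66 to 5.98 over all 12. The exception was the fit of all 49 libraries together, where its adjusted p was 0.363.

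**Figure D4:**
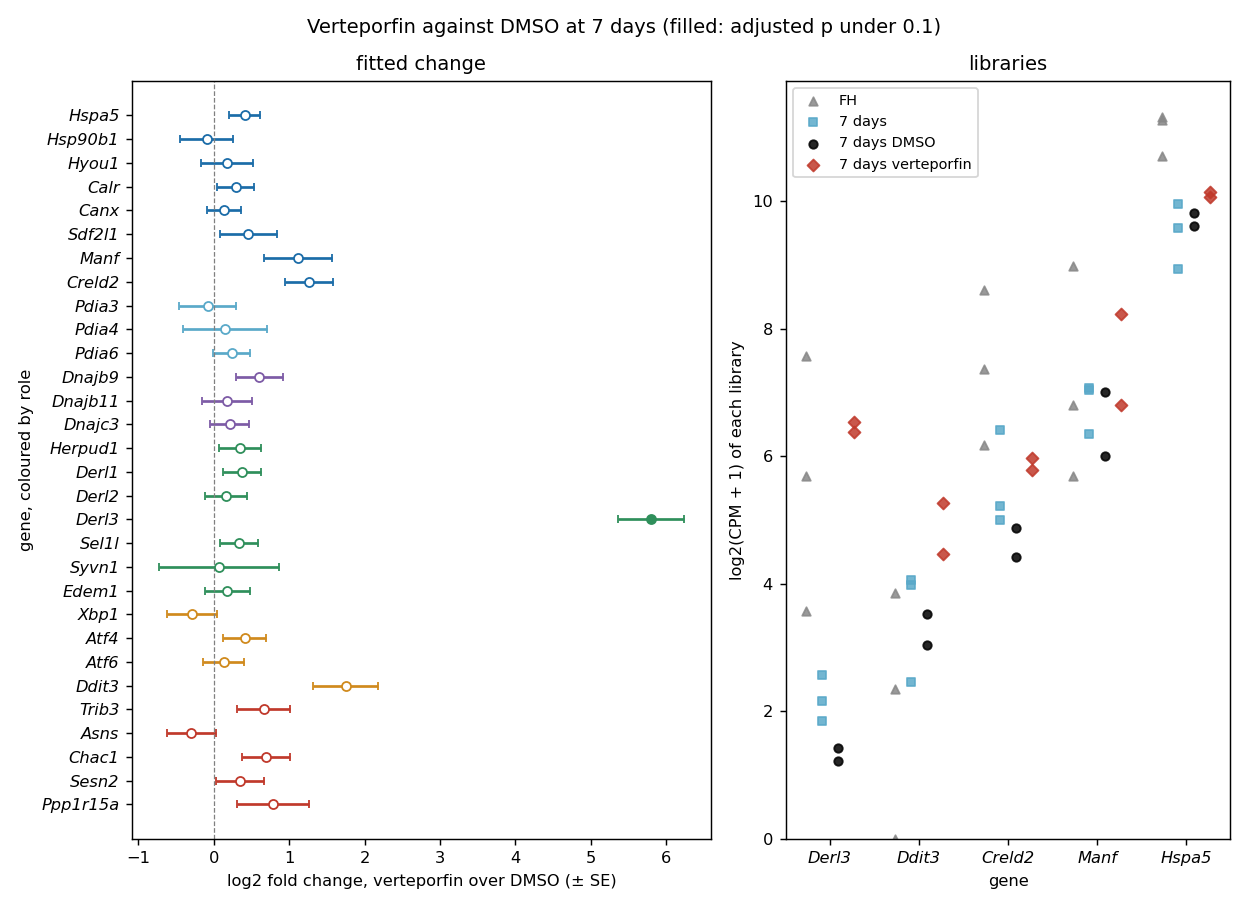
Left, log2 fold change of verteporfin over DMSO with its SE for the 30 genes, filled where the adjusted p was under 0.1, which is Derl3 only. Right, log2 of CPM plus 1 per library for Derl3, Ddit3, Creld2, Manf and Hspa5 in FH, at 7 days, with DMSO and with verteporfin; the 2 verteporfin libraries of Derl3 lie at 91.9 and 82.4 CPM, far above DMSO and 7 days.

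The other 29 genes did not pass in this fit, which was not paired. The verteporfin and DMSO libraries carry the same 2 numbers, and with the number as a block 4 genes passed. In the unpaired fit 26 of the 30 had a positive log2FC, against 5155 of all 10400 genes tested. The median of the 30 was 0.31 and that of all genes -0.0042. Genes measured in the same libraries are not independent. Ddit3 had 37.5 and 21.1 CPM with verteporfin and 10.5 and 7.27 with DMSO (log2FC 1.75, SE 0.43, adjusted p = 0.211). Creld2, a chaperone-like gene of the ER, had 54.3 and 61.9 against 20.4 and 28.5 CPM (log2FC 1.27, SE 0.32, adjusted p = 0.218). In both genes the pairs of libraries were apart, which says little by itself with 2 libraries a group and was not counted over all genes. Manf had 111 and 300.4 CPM against 63.3 and 128, and the groups overlapped (log2FC 1.12, SE 0.45, adjusted p = 0.497). Hspa5 had 1134 and 1070.3 CPM against 905 and 788 (log2FC 0.41, SE 0.20, adjusted p = 0.586), and Xbp1 94.5 and 195 against 158 and 202 (log2FC -0.29, SE 0.33, adjusted p = 0.838). With 2 libraries a group, leaving out any one of them gave 2 or 3 genes past the test.

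Of the pathway lists, 1 of 13 sensors and regulators passed with verteporfin, Creb3l3, which encodes an ER-bound transcription factor of the liver: 95.8 ± 14.6 CPM with verteporfin and 10.6 ± 0.0588 with DMSO (SD, n = 2 each; log2FC 3.20, SE 0.33, adjusted p = 0.00713). None of 24 folding, 19 ERAD, 26 Atf4-target and 11 cytosolic heat shock genes passed. Marker genes of plasma cells, in which Derl3 is known to be high, were at 0 in all 4 libraries (0 of 4 markers with a count). Summed goblet cell markers were 6.19 to 9.06 CPM with verteporfin and 1.68 to 1.98 with DMSO, and those of Paneth cells 7.12 to 9.29 and 1.32 to 5.03; their part in the result was not tested. Hepatocyte markers summed to 3322 to 3910 CPM and 3919 to 3932 CPM.

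In dediHeps, the passaged cells, 18 of the 30 genes were lower than in FH and 2 were higher, against 22.7% and 22.4% of all 11276 genes tested (median log2FC -1.41, all genes 0.08). Folding and ERAD accounted for 16 of the 18. Derl3 had 0.906 to 3.16 CPM over the 5 dediHep libraries (median 2.01) and 11.0 to 190 in FH (log2FC -5.46, SE 0.78, adjusted p = 0.00025). Derl2 went the same way, with 54.2 to 86.4 CPM (median 79.0) against 185 to 465 (log2FC -2.40, SE 0.35, adjusted p = 0.000251). Dnajc3 had 119 ± 28.2 CPM against 631 ± 306 (log2FC -2.52, SE 0.37, adjusted p = 0.000263). The groups were apart in each. Herpud1, at 113 to 199 CPM, was lower than FH but above the 14 day libraries (log2FC -1.59, SE 0.30, adjusted p = 0.00173). The 2 that rose were Asns (59.5 ± 45 against 1.77 ± 2.13 CPM; log2FC 4.79, adjusted p = 0.0018) and Sesn2 (95.4 ± 37.0 against 20.5 ± 6.49; log2FC 2.10, adjusted p = 0.00397). Without FH replicate 1, 13 were lower and 3 higher, and with library totals in place of TMM 8 were lower and 8 higher, when the median of all genes was 0.96 and that of the 30 was -0.56. Of the lists, 13 of 24 folding genes were lower and 1 higher, 8 of 19 ERAD genes were lower, 14 of 25 Atf4 targets were higher and 4 lower (Psat1 at 8.05, Phgdh at 8.70), 3 of 13 sensors were higher and 2 lower (Ern1 at -1.68), and 2 of 12 heat shock genes were higher and 4 lower. In dediHeps the hepatocyte markers summed to 862 to 4276 CPM (Tat at 0), the cholangiocyte markers to 1010 to 1670 and the endothelial markers to 1.00 to 2.37, against 17425 to 21658, 17.8 to 106 and 186 to 294 CPM in FH; their part in the results was not tested.

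In the dediHep aggregates, 10 of the 29 genes tested were higher than in dediHeps and 1 was lower, where 12.2% of all 11265 genes were higher and 12.2% lower (median log2FC 0.58, all genes -0.07). All 10 were genes of folding or ERAD: Hspa5, Hyou1, Calr, Creld2, Pdia6, Dnajb9, Dnajb11, Dnajc3, Herpud1 and Derl2. None of the 9 transcription factors and Atf4-arm genes passed as higher, and Ppp1r15a passed as lower. By sign alone 7 of these 9 had a positive log2FC, as did 17 of the 20 folding and ERAD genes tested. Over all 11265 genes tested, 5324 had a positive log2FC.

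Derl2 had 272, 178 and 282 CPM in aggregates and 54.2 to 86.4 in the 5 dediHep libraries (log2FC 1.70, SE 0.27, adjusted p = 0.00341). Herpud1 had 636, 316 and 321 CPM against 113 to 199 (median 152; log2FC 1.41, SE 0.31, adjusted p = 0.0168). Creld2 had 172, 200 and 143 CPM against 23.5 to 83.1 (median 77.0; log2FC 1.39, SE 0.37, adjusted p = 0.034). In each of these the groups were apart, and the aggregate libraries of Creld2 lay within the span of FH. Hspa5 had 1560 ± 376 CPM (n = 3) against 901 ± 299 (n = 5; log2FC 0.81, SE 0.30, adjusted p = 0.0939). Ppp1r15a had 0.807, 2.60 and 10.2 CPM against 8.04 to 66.0 (median 13; log2FC -2.46, SE 0.88, adjusted p = 0.0835). Derl3 was too low to be tested, at 8.87, 19.1 and 4.58 CPM in aggregates and 0.906 to 3.16 in dediHeps.

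The aggregates shared culture codes with 3 of the dediHep libraries, and with the code as a block 9 genes passed: Hspa5, Hyou1 and Pdia6 lost their calls (adjusted p = 0.265, 0.129 and 0.121) and Sdf2l1 gained one. The count was 2 without aggregate replicate 1 (Calr and Derl2), 5 without aggregate replicate 2, and 7 without aggregate replicate 3 or without dediHep replicate 3, and 7 with library totals in place of TMM. Derl2 passed in each of these fits. Hepatocyte markers summed to 7328 to 11611 CPM in aggregates and 862 to 4276 in dediHeps, and goblet cell markers to 457 to 1104 and 2.79 to 36.2 CPM; their part in the result was not tested. Of the lists, 10 of 24 folding genes were higher and none lower, led by Ero1b (2.87), Pdia5 (1.92) and P4hb (0.97), 3 of 19 ERAD genes were higher (Aup1, Fam8a1, Os9), and 2 of 14 sensors were higher, Creb3l3 (3.36, adjusted p = 0.00856) and Ern1 (1.67, adjusted p = 0.0114), and 2 lower. Of 27 Atf4 targets 1 was higher, Gpt2 (1.54), and of 12 heat shock genes 1, Hspa1b (1.54).

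**Figure D5:**
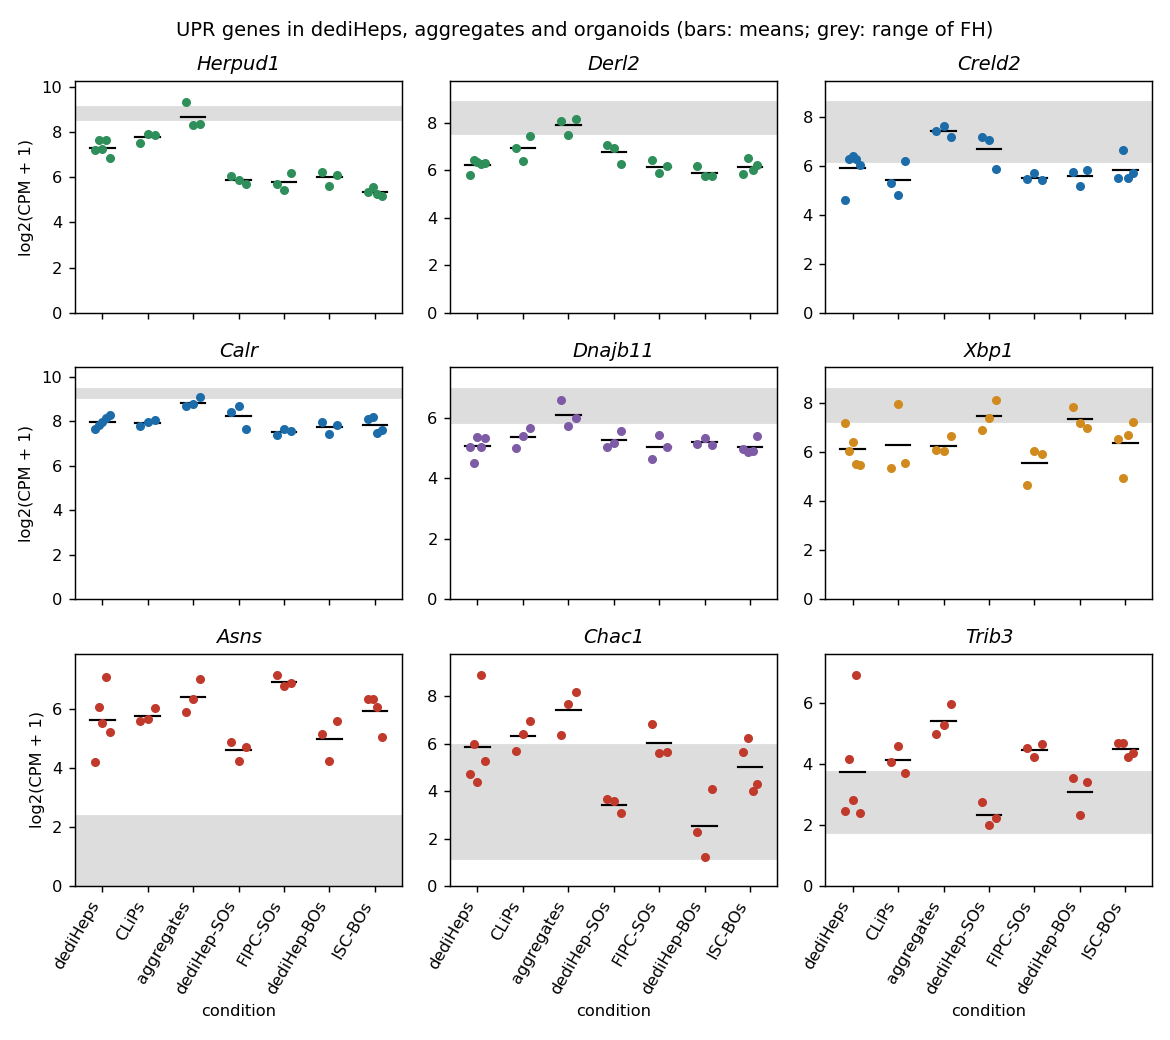
Log2 of CPM plus 1 per library (vertical axis) of 9 genes in dediHeps, CLiPs, aggregates, dediHep-SOs, FIPC-SOs, dediHep-BOs and ISC-BOs (horizontal axis); bars are group means and the grey band is the range of FH. Herpud1, Derl2, Creld2, Calr and Dnajb11 are higher in aggregates than in dediHeps, and Asns, Chac1 and Trib3 are lower in dediHep-SOs than in FIPC-SOs.

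In dediHep-SOs, 1 of 29 genes tested was higher than in dediHeps and 3 were lower, against 7.93% and 8.21% of 11470 genes (median log2FC -0.30, all genes -0.05). Herpud1 had 65.5, 57.0 and 51.4 CPM against 113 to 199 in dediHeps (log2FC -1.48, SE 0.30, adjusted p = 0.00881), and Ppp1r15a had 2.89, 1.49 and 2.78 CPM against 8.04 to 66.0 (log2FC -3.43, SE 0.81, adjusted p = 0.02). Chac1 had 11.6, 10.9 and 7.4 CPM against 19.6 to 477 (log2FC -3.63, SE 1.13, adjusted p = 0.068). These 3 were apart from dediHeps. Xbp1 was higher, at 119, 168 and 285 against 43.5 to 148 CPM, with an overlap (log2FC 1.28, SE 0.45, adjusted p = 0.0989). Chac1 and Xbp1 both lost their calls without any one of the 3 dediHep-SO libraries (2 genes left each time), and Chac1 had a log2FC of -1.85 (adjusted p = 0.0357) without dediHep replicate 4, which alone held 477 CPM. Xbp1 also lost its call without dediHep replicate 2, 3, 4 or 5 (adjusted p from 0.13 to 0.186). The 3 dediHep-SO libraries carry the culture codes of 3 dediHep libraries, and with the code as a block 2 genes passed, Herpud1 (log2FC -1.52, adjusted p = 0.0896) and Ppp1r15a (-3.30, adjusted p = 0.0248), while Chac1 (-1.67, adjusted p = 0.155) and Xbp1 (0.91, adjusted p = 0.419) lost their calls. Of the lists, 6 of 24 folding genes were higher (Ero1a at 3.22, Dnajc10 at 2.18), 0 of 19 ERAD genes passed, Creb3l3 was the 1 of 14 sensors that passed (-6.04, adjusted p = 0.00469), 1 of 26 Atf4 targets was higher and 4 lower, and 1 of 12 heat shock genes was higher. Hepatocyte markers summed to 102 to 135 CPM in dediHep-SOs, with Alb, Serpina1c and Tat at 0, and the 4 intestinal stem cell markers to 561 to 698 CPM against at most 5.92 in dediHeps. The comparisons of aggregates, dediHep-SOs and CLiPs share the 5 dediHep libraries.

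Spheroids of fetal intestine were compared next. Of 29 genes, 3 were higher in dediHep-SOs than in FIPC-SOs and 3 were lower, against 13.1% and 10.3% of 11608 genes (median log2FC 0.09, all genes -0.03). The 3 lower were Asns, with 28.6, 17.8 and 25.0 CPM against 140.0, 107 and 115 (log2FC -2.37, SE 0.31, adjusted p = 0.000909), Chac1, with 11.6, 10.9 and 7.4 against 114, 47.3 and 49.8 (log2FC -2.84, SE 0.44, adjusted p = 0.00208), and Trib3, with 5.78, 2.97 and 3.70 against 21.8, 17.9 and 24.1 (log2FC -2.36, SE 0.40, adjusted p = 0.0035). All 3 have a CARE in their promoter window, as has Herpud1, which was not among the genes that passed. In all 3 the groups were apart and the call held when any one library was left out. Higher were Xbp1 (119 to 285 against 24.2 to 66.2 CPM; log2FC 1.88, adjusted p = 0.0216), Creld2 (1.25, adjusted p = 0.047) and Derl1 (0.83, adjusted p = 0.0602). Derl1 and Creld2 lost their calls without dediHep-SO replicate 1 or 2 or FIPC-SO replicate 2 or 3 (adjusted p from 0.11 to 0.166), and Derl1 also without FIPC-SO replicate 1 (0.115). Of the 28 further Atf4 targets 14 were lower and none higher, led by Mthfd2 (-2.81, adjusted p = 0.000283), Aldh1l2 (-3.93, adjusted p = 0.000704) and Stc2 (-5.35, adjusted p = 0.00112). Of 24 folding genes 5 were higher (Dnajc10 at 2.91), of 19 ERAD genes 4, of 14 sensors 1, Creb3l2 (1.36), with 1 lower, and of 12 heat shock genes 1, Hspb1 (5.53), with 1 lower. Goblet cell markers summed to 132 to 255 CPM in dediHep-SOs and 419 to 995 in FIPC-SOs, and those of Paneth cells to 1308 to 1937 and 1104 to 2155; their part in the results was not tested.

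Among budding organoids fewer genes passed, both of the members and of all genes tested. In dediHep-BOs 1 of 30 genes was higher than in ISC-BOs and 3 were lower, against 5.26% and 4.94% of 11303 genes (median log2FC 0.10, all genes -0.0014). Trib3 had 10.7, 3.97 and 9.59 CPM against 17.8 to 24.9 in the 4 ISC-BO libraries (log2FC -1.39, SE 0.37, adjusted p = 0.0526). Derl3 had 1.46, 2.21 and 1.67 against 4.32 to 9.20 (log2FC -1.67, SE 0.49, adjusted p = 0.0726), and Chac1 had 3.88, 1.32 and 16.3 against 14.8 to 73.6 (log2FC -2.38, SE 0.74, adjusted p = 0.0895). Trib3 and Derl3 were apart, and Chac1 overlapped. Dnajb9 was higher, at 40.3, 25.1 and 16.7 against 7.94 to 18.3 CPM (log2FC 1.23, SE 0.39, adjusted p = 0.0931). All 4 calls were lost when ISC-BO replicate 1 was left out, the counts without one of the other libraries ran from 1 to 9 (9 without ISC-BO replicate 4), and in the fit of all 49 libraries no member passed. Of the lists, 8 of 28 Atf4 targets were lower and 1 higher, with Slc7a1 at -1.29 (adjusted p = 0.00934), Mthfd2 at -1.51 and Atf5 at -1.62, and of 24 folding, 19 ERAD and 14 sensor genes 1 each was higher (Txndc5, Edem3 and Eif2ak3, which encodes Perk, at 1.76). Of 10 heat shock genes tested, 1 was higher and 1 lower.

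CLiPs, hepatocyte-derived cells made with small molecules, differed from dediHeps in 1 of 29 genes, Ddit3, which was higher, against 2.84% of 11567 genes higher and 1.85% lower (median log2FC -0.02, all genes -0.03). Ddit3 had 54.2, 27.1 and 78.6 CPM in CLiPs and 8.15 to 28.8 in dediHeps (median 13.7; log2FC 1.82, SE 0.49, adjusted p = 0.0908), with an overlap of 1 library. It lost its call without CLiP replicate 1 or 3 and without dediHep replicate 1, 2, 3 or 5 (adjusted p from 0.114 to 0.265; 0 genes passed). None of the genes of the 5 pathway lists passed.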

How the data were processed

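RNA from 49 libraries of 16 conditions was sequenced by CEL-seq2. The values are UMI counts per gene that the authors deposited as one matrix without normalization. Per the submitters' processing notes, reads were handled with bcl2fastq 2.20, Bowtie2 2.3.1 and HTSeq 0.6.0 on GRCm38. The reporting summary of the study names the celseq2 pipeline, whose settings are not given in the sources used here. Groups were taken from the sample labels. Identifiers were named by GENCODE M21 (45143 of 46078 matched, and 14097 had no count).

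Counts were tested with edgeR 4.0.16 (R 4.3.3; limma 3.58.1) by the quasi-likelihood F-test with TMM, after filterByExpr (minimum count 10, minimum total 15), in 1 fit of the 7 groups of the time course and in fits of the 2 groups compared elsewhere. Benjamini-Hochberg adjusted p-values run over all genes tested, with the thresholds of the study (adjusted p under 0.1; a call by size also needs a log2 fold change over 2 or under -2). The script was tested on simulated data. Alternatives were DESeq2 1.42.0, RLE scaling, no filter or a filter of 5 CPM, a correction for UMIs drawn more than once, 1 fit of all 49 libraries, the replicate number as a block and leaving out each library. Library totals without TMM and the counts without FH replicate 1 were added after the data were seen.

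The 30 genes and the pathway and marker lists were chosen with earlier results of these data known, so no count over them is independent evidence. Values in every library are given for members that passed with verteporfin and for the 12 members with the smallest p at 3 h against FH or at 1 day against 3 h. Elsewhere up to 3 members, and up to 3 genes of a pathway list, with the smallest p in each direction are given, with others named after their values were seen where a count rests on them. Libraries of the time course were not paired by their numbers. The values given for dediHep aggregates against dediHeps come from a fit without pairing. The culture code in the labels was used as a block in an alternative fit only. The deviations of all 3 pairs from their group means were correlated (r from 0.17 to 0.32). Over 54 pairs of replicates, Spearman rho ran from 0.835 to 0.979 and none agreed within sampling noise. Promoters came from RefSeq tables of GRCm38.p6, searched on both strands.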

Additional observations from a re-analysis of the deposited data

Results flagged for a closer look

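In all, 60 groups of 4 or 5 libraries were examined at either end (30 genes in dediHeps and ISC-BOs). Of these 9, or 15%, held a highest library whose gap to the next was wider than the 95% critical value of Dixon's test. That value assumes normally distributed data and was applied to CPM that were not log-transformed, so the share cannot be set against chance. In dediHeps, replicate 4 held 477 CPM of Chac1 against 61.8 in the next library and 121 CPM of Trib3 against 17.1. Replicate 1 held 150.35 CPM of Edem1 against 65.7, 180.53 CPM of Hsp90b1 against 69.5 and 52.0 CPM of Pdia4 against 9.93, and it also had the highest score of all libraries on the axis of variation within groups (62.1). In ISC-BOs, replicate 2 held 98.6 CPM of Creld2 against 52.4, 159.68 CPM of Manf against 73.5 and 87.4 CPM of Sesn2 against 30.3, and replicate 4 held 41.1 CPM of Dnajb11 against 30.3. Genes flagged in one library come from the same RNA and are not separate events, and no cause was tested.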

How the results depend on the processing

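Of 3038 values of named genes under an alternative, 2751 kept their direction and side of the threshold, 284 kept the direction and missed the threshold, and 3 reversed: Derl1 with library totals in place of TMM (log2FC 0.10 at 1 day and 0.19 at 4 days) and Syvn1 at 4 days, whose log2FC ran from -4.04 to 0.21 when 1 library was left out, the last without FH replicate 1. Their causes were not tested. In the fit of all 49 libraries the number of members that passed was 0 with verteporfin, 7 for dediHep-SOs against dediHeps, 0 for dediHep-BOs and 3 for CLiPs. Without the filter on low counts it was 4 with verteporfin (Manf, Creld2, Derl3, Ddit3) and 9 for dediHep-BOs, and with library totals 7 for aggregates. With library totals all genes divided into 5744 higher and 2001 lower at 1 day against 3 h (3293 and 3265 with TMM), and against FH into 5676 and 1717 at 2 days (2643 and 2874), 6320 and 1704 at 4 days (2920 and 2923), 6716 and 1785 at 7 days (3184 and 2918), 5665 and 2188 at 14 days (3485 and 3436) and 5571 and 1520 in dediHeps (2525 and 2564); for aggregates they were 1013 and 2134 (1377 and 1377) and for dediHep-SOs against FIPC-SOs 1289 and 1540 (1526 and 1197).

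With the replicate number as a block, where, outside the aggregates, the deviations of same-numbered libraries were not all correlated above 0.1 or there were fewer than 3 pairs, the number that passed was 2 at 3 h (number in the description), 4 with verteporfin and 7 for dediHep-BOs (number in the title), 0 for CLiPs, and 2 for dediHep-SOs against dediHeps by culture code; all other counts under a block, aggregates included (9), were within 1.5 times. Same-numbered time course libraries had deviations correlated at r from -0.54 to 0.37 with FH. Leaving out 1 library at a time gave 2 to 9 at 3 h, 2 to 3 with verteporfin, 2 to 12 in aggregates, 2 to 6 and 4 to 9 in dediHep-SOs against dediHeps and FIPC-SOs, 0 to 9 in dediHep-BOs and 0 to 1 in CLiPs. Against FH it gave 21 to 26 at 1 day, 20 to 27 at 2 days, 19 to 27 at 4 days, 20 to 25 at 7 days, 19 to 26 at 14 days and 16 to 22 in dediHeps, and 22 to 24 at 1 day against 3 h. Where 1 library was left in an arm it was assumed to vary like the others. Depth limits Ddit3 and Asns in FH, and Derl3 at 4 days, in dediHep-SOs and with DMSO, where the libraries hold few counts of them.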
